A study of Mus musculus with 44 samples.

Results

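Transcripts of 10 genes of the Notch pathway were followed in mouse ovarian follicles: the receptors Notch1, Notch2 and Notch3, the ligands Jag1 and Jag2, the target genes Hes1, Hey1, Hey2 and Heyl, and Lfng, a Fringe glycosyltransferase that modifies the receptors. They were chosen by symbol as family members, and are 10 of 24218 gene symbols in the deposited tables. All 10 were present in both tables, and 9 of them passed the filter on low values in each window. Lfng did not pass it in either.

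RNA sequencing was done on follicles of wild-type CD-1 mice, an outbred strain, in windows of maturation and of ovulation. Maturation controls received DMSO, a solvent (n = 11), and were set against follicles given PFNA (perfluorononanoic acid, a persistent fluorinated chemical of the PFAS class; n = 10). Ovulation controls received hCG (human chorionic gonadotropin, the hormone used to trigger ovulation; n = 12) and were set against hCG together with PFNA (n = 11). The labels give no dose, exposure time, age, date or batch, and do not say whether libraries of a group came from separate animals or cultures, so the p-values measure the spread between these 44 libraries, which may be partly technical.

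Notch signalling passes between touching cells. A ligand of the Jagged or Delta kind on one cell binds a Notch receptor on its neighbour, ADAM proteases and gamma-secretase then cut the receptor, and the freed intracellular domain joins RBPJ and the MAML coactivators on DNA to switch on the HES and HEY repressors. In the mouse ovary JAG1 and NOTCH2 are best known for signalling between oocyte and granulosa cells and among granulosa cells, whereas NOTCH1, NOTCH4, DLL4 and HEY1 are known from endothelium and NOTCH3 and HEYL from the mural cells (pericytes and smooth muscle) that wrap vessels.

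Of the 10 genes, 7 have a promoter entry in RefSeq (GRCm38.p6), covering 250 bases before to 50 after the start: Notch1, Notch2, Notch3, Jag1, Jag2, Hey2 and Lfng. Those of Notch2, Jag1 and Hey2 are shown because these 3 transcripts, a receptor, a ligand and a target, moved in differing directions with PFNA in the ovulation window. They lie at chr3:98013288-98013587 on the plus strand, chr2:137116471-137116770 on the minus strand and chr10:30842734-30843033 on the minus strand. Each is written 5′ to 3′ along its gene, and capitals mark matches to the motifs searched.
Notch2: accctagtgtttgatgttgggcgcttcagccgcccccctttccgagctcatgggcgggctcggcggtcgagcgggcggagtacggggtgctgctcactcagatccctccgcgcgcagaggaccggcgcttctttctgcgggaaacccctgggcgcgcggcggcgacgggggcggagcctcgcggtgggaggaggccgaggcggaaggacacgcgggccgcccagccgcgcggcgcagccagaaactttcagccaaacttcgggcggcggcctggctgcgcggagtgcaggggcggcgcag
Jag1: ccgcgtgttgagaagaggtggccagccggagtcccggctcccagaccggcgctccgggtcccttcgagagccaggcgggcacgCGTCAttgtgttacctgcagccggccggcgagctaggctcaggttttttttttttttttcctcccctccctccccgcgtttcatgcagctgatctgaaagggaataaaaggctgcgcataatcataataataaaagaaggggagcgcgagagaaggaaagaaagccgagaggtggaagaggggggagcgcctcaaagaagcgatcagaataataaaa
Hey2: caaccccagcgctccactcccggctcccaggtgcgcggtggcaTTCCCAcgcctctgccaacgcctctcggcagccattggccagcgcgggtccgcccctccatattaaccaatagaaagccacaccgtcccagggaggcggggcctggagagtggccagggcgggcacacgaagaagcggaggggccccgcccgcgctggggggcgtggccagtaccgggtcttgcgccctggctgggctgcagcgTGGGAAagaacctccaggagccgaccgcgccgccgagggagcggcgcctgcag

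The motifs searched, on both strands, were the RBPJ core TGGGAA, the CRE core TGACG, the AP-1 site TGANTCA, the RUNX core TGTGGT and the E-box CACGTG. With the start base counted as 0, the Hey2 promoter held the RBPJ core at -207 to -202 on the reverse strand and at -3 to 2 on the forward strand. The Jag1 promoter held 1 CRE core, at -167 to -163 on the reverse strand, and the Notch2 promoter held none of the 5 motifs. In the promoters not shown, Notch3 had a CRE core at -184 to -180, and Lfng had 2 RBPJ cores and an E-box that overlapped the second of them. Such matches are common: 25.6% of 32817 promoters of the same length held the RBPJ core, 20.8% the CRE core, 7.81% the AP-1 site, 16.8% the RUNX core and 7.15% the E-box. The GC content was 73.0% for Notch2, 55.7% for Jag1 and 72% for Hey2, against a median of 52.7% over all promoters.

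Levels in the maturation window are TPM (transcript abundances divided by length and scaled to one total), for which the read depth is unknown. Levels in the ovulation window are CPM (TMM-normalized counts scaled to the library total, not divided by length), from library totals of 11.96 to 16.05 in controls and 10.6 to 19.5 with PFNA, in units of 1000000 counts. Maturation PFNA replicates 1, 2 and 10 stood apart in summed oocyte markers, at 117, 97.1 and 292 TPM, beside 6.63 to 16.0 TPM in the other PFNA libraries and 115 to 178 TPM in controls. A column of the maturation table differed by a letter from the title of control replicate 6 and was taken as that library. Of the granulosa, theca, endothelial and mural markers listed, none had a median of 0 in any group. Among oocyte markers Zp2 and Figla had a median of 0 in maturation PFNA libraries, and Figla in ovulation controls.

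Before PFNA is considered, the family can be put in an order of levels, although the control ranges of several neighbours overlapped. By median TPM in maturation controls it ran Hey2, Hes1, Heyl, Jag2, Hey1, Notch2, Jag1, Notch3, Notch1 and Lfng. Hey2, a repressor of the HEY group, was above Hes1 in 11 of 11 controls, whereas Hes1 was above Heyl in 6 of 11 and Jag2 above Hey1 in 4 of 11, so those neighbours did not differ beyond their spread. In ovulation controls, levels per kilobase of the longest coding transcript gave another order, led by Jag1 at a median of 178 CPM per kilobase, Notch2 at 61.8, Heyl at 46.3 and Hes1 at 33.8. Jag1 was above Notch2 in 12 of 12 of these controls and Notch2 above Heyl in 10 of 12. Levels were not compared across the tables, which were scaled differently.

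**Figure D1:**
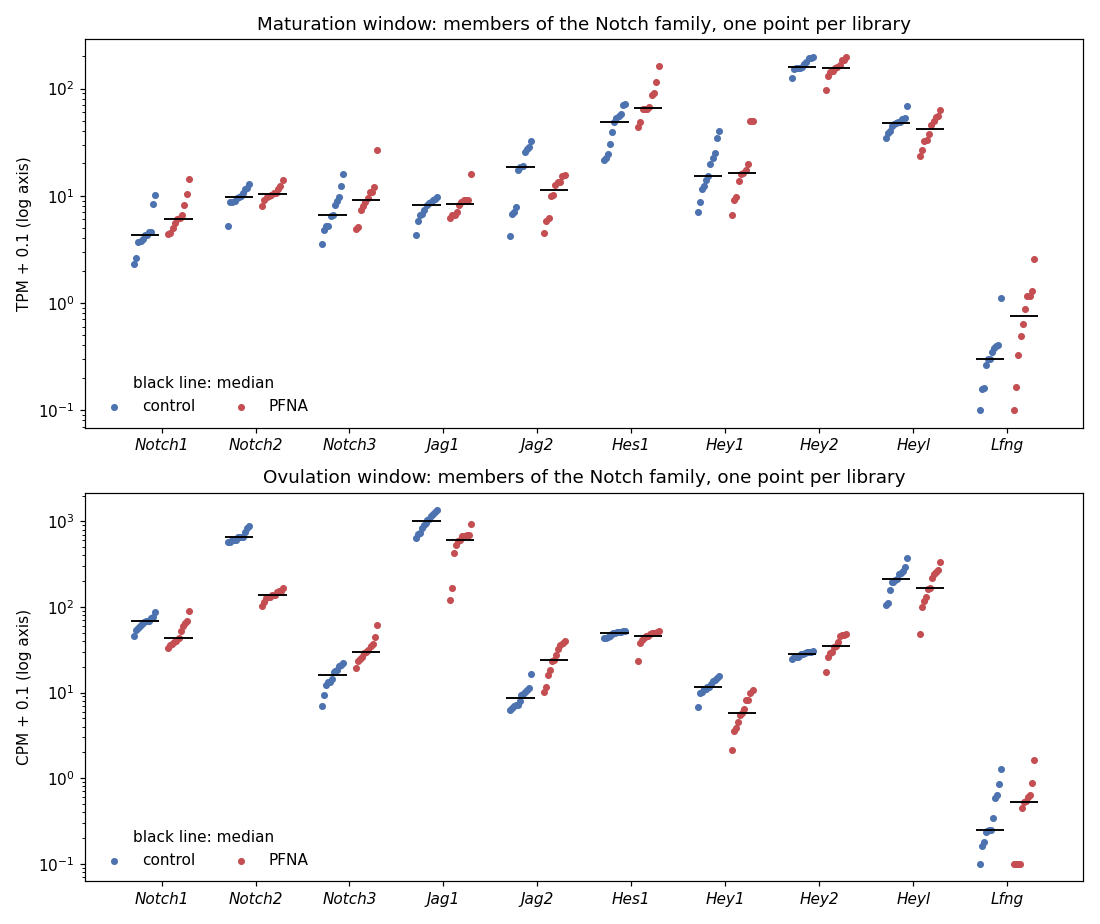
Level of each of the 10 genes in each library, in TPM in the maturation window (upper panel) and CPM in the ovulation window (lower panel), with 0.1 added so that values of 0 can be drawn on the log axis; blue points are controls, red points PFNA libraries and black lines medians. Notch2 in the ovulation window is the only gene whose groups do not overlap, at 575 to 882 CPM in controls and 102 to 166 CPM with PFNA.

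The first comparison asked whether PFNA changed these transcripts during maturation. Hes1 rose 1.80-fold and was the only one of the 9 genes tested that passed the threshold, a limma adjusted p under 0.05. Across all 13711 genes tested 29.4% passed, 13.3% higher and 16.1% lower, so 1 of 9 is not above the background. The median log2 fold change of the 9 was 0.12, beside 0.02 over all genes tested. In the same libraries 6 of 8 granulosa markers and 9 of 9 oocyte markers tested were lower by limma, with median log2 fold changes of -0.73 and -1.99. The granulosa sum was 34113 to 54476 TPM in controls and 14567 to 40769 TPM with PFNA, the oocyte sum 115 to 178 and 6.63 to 292 TPM, and the part of the granulosa markers in the values below was not tested. No gene of the family had groups that did not overlap, which 1.28% of all genes had, 0.489% higher and 0.788% lower.

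Hes1 (chromosome 16, 30064384 to 30067796, plus strand, GRCm38) encodes the classic HES repressor downstream of Notch. It ranged from 21.6 to 71.7 TPM in controls, with a median of 48.7, and from 43.9 to 162 TPM with PFNA, with a median of 66.3. The groups overlapped, but PFNA replicates 3, 4, 7 and 10 exceeded every control, at 86.4, 90.6, 115 and 162 TPM. Means were 44.9 ± 18.6 TPM (SD, n = 11) and 80.7 ± 35.5 TPM (SD, n = 10), and the log2 fold change was 0.85 (SE 0.25, limma adjusted p = 0.014). When each library was left out in turn, the log2 fold change ran from 0.72 to 0.93 (adjusted p up to 0.028). Without PFNA replicates 1 and 2, but with replicate 10, the highest in Hes1, kept, it was 0.95 (adjusted p = 0.0084). Without control replicate 6 it was 0.76 (adjusted p = 0.026). With the oocyte share as a covariate it was 1.16 (adjusted p = 0.007), and with the summed mural markers as a covariate the call was lost (0.37, adjusted p = 0.083). Outside PFNA replicates 1, 2 and 10, oocyte sums with PFNA were 6.63 to 16.0 TPM, against 115 TPM or more in every control. Maturation fits with the oocyte share thus cannot cleanly separate it from PFNA.

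The HEY genes, the other targets measured, did not pass. Hey2 (chromosome 10, 30832359 to 30842801, minus strand) ranged from 126 to 199 TPM in controls (median 160) and from 96.1 to 198 TPM with PFNA (median 156), a change of -0.11 on the log2 scale (SE 0.11, limma adjusted p = 0.46). Heyl (chromosome 4, 123233556 to 123249875, plus strand) ranged from 34.8 to 68.6 TPM (median 47.6) and from 23.3 to 62.7 TPM (median 41.6), and 4 of 10 PFNA libraries lay below every control. Its log2 fold change was -0.22 (SE 0.16, limma adjusted p = 0.29). Hey1 (chromosome 3, 8663359 to 8667256, minus strand) had almost the same median in both groups, 15.1 TPM in controls and 16.0 TPM with PFNA, and for its level the widest ranges of the HEY genes, 6.91 to 39.9 and 6.47 to 49.5 TPM. Its log2 fold change was 0.01 (SE 0.34, limma adjusted p = 0.99).

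Among the receptors Notch1 (chromosome 2, 26457903 to 26516663, minus strand), widely expressed in endothelium, came closest to the threshold. It ranged from 2.20 to 9.97 TPM in controls (median 4.16) and from 4.25 to 14.1 TPM with PFNA (median 6.01), a change of 0.51 on the log2 scale (SE 0.21, limma adjusted p = 0.075). It passed when PFNA replicates 1 and 2 were left out together (0.64, adjusted p = 0.028), and when PFNA replicate 1, control replicate 8 or control replicate 12 was left out alone (0.57, 0.61 and 0.59, adjusted p = 0.049, 0.021 and 0.038). Notch2 (chromosome 3, 98013527 to 98150361, plus strand), the granulosa cell receptor, ranged from 5.08 to 12.7 TPM (median 9.62) and from 7.87 to 13.8 TPM (median 10.3), a change of 0.12 on the log2 scale (SE 0.11, limma adjusted p = 0.44). Notch3 (chromosome 17, 32120820 to 32166852, minus strand) ranged from 3.41 to 15.8 TPM (median 6.44) and from 4.78 to 26.3 TPM (median 8.96), a change of 0.32 on the log2 scale (SE 0.25, limma adjusted p = 0.35). For all 3 receptors most PFNA libraries lay within the control range. With the oocyte share as a covariate Notch1 and Notch3 passed (0.78 and 0.79, limma adjusted p = 0.024 and 0.033). As given above for Hes1, that covariate cannot be cleanly separated from PFNA in this window. Exons of Notch1 and Notch3 overlap genes on the opposite strand, and those of Notch2 a gene on the same strand. Whether the counting used strand is not given in the sources used here, so reads of these partners could not be told apart from theirs.

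Neither ligand passed with all libraries and no covariate. Jag1 (chromosome 2, 137081456 to 137116644, minus strand) ranged from 4.24 to 9.54 TPM in controls (median 8.02) and from 6.05 to 16.0 TPM with PFNA (median 8.32), a change of 0.14 on the log2 scale (SE 0.14, limma adjusted p = 0.50). Jag2 (chromosome 12, 112907819 to 112929776, minus strand) ranged from 4.13 to 32.4 TPM (median 18.3) and from 4.41 to 15.4 TPM (median 11.3), a change of -0.53 on the log2 scale (SE 0.33, limma adjusted p = 0.23). For Jag2 the highest PFNA library lay under the control median. Jag1 passed with the oocyte share as a covariate (0.44, limma adjusted p = 0.023), and Jag2 with the mural sum (-1.04, limma adjusted p = 0.010). Lfng (chromosome 5, 140607320 to 140615545, plus strand) had medians of 0.201 TPM in controls and 0.656 TPM with PFNA, and reached 1 TPM in 1 of 11 and 4 of 10 libraries. Its mean over all libraries, 0.504 TPM, was under the minimum of 1 TPM for testing.

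The second comparison asked the same of follicles in the ovulation window. Notch2 fell 4.90-fold, Jag1 1.79-fold, Hey1 1.91-fold and Notch1 1.28-fold, while Jag2 rose 2.78-fold, Notch3 2.11-fold and Hey2 1.30-fold. By edgeR's quasi-likelihood test 7 of the 9 genes tested passed an adjusted p under 0.05, 3 higher and 4 lower, and Hes1 and Heyl did not pass. Hes1 passed with the endothelial sum as a covariate (-0.24, adjusted p = 0.036) and Heyl with the mural sum (-0.91, adjusted p = 0.036). This window changed broadly: 73.2% of 13435 genes passed, 37.9% higher and 35.3% lower, so the share of the family that passed is near the background. The median log2 fold change of the 9 was -0.23, beside 0.04 over all genes tested. Notch2 was the 1 gene of the 9 whose groups did not overlap, and 26% of all genes had such groups, 11.9% higher and 14% lower.

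Notch2 had the widest gap of the family. It ranged from 575 to 882 CPM in controls (median 649) and from 102 to 166 CPM with PFNA (median 138), so the highest PFNA library was well under the lowest control. Means were 670 ± 100.2 CPM (SD, n = 12) and 137 ± 18.7 CPM (SD, n = 11), and the log2 fold change was -2.29 (SE 0.089, edgeR adjusted p = 6.2e-17). In this bulk measurement fewer cells of a type and less RNA per cell cannot be told apart. Of the granulosa cell markers 5 of 8 were higher and 2 lower by the same test, beside 37.9% and 35.3% of all genes, with a median log2 fold change of 1.69, and their summed level was 9434 to 15267 CPM with PFNA and 11575 to 18158 CPM in controls. Their part in the Notch2 value was not tested.

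Of the other receptors Notch3 rose and Notch1 fell by less than Notch2 in these libraries. Notch3, known from mural cells, ranged from 6.87 to 21.9 CPM in controls (median 15.8) and from 19.4 to 60.9 CPM with PFNA (median 29.5), with 10 of 11 PFNA libraries beyond the highest control. The log2 fold change was 1.08 (SE 0.19, edgeR adjusted p = 1.6e-05). Notch1 ranged from 45.5 to 86.1 CPM (median 67.6) and from 33.1 to 88.5 CPM (median 43.2), with 6 of 11 PFNA libraries below every control and 1 above. The change, -0.36 on the log2 scale (SE 0.15, edgeR adjusted p = 0.030), lost its call when PFNA replicate 1, 2, 6, 7, 8 or 10 or control replicate 7 was left out, with values from -0.34 to -0.31 and adjusted p up to 0.057. With the endothelial or the mural marker sum as a covariate Notch1 was lower by more, at -0.60 and -0.94 (edgeR adjusted p = 0.00049 and 6.7e-05). Per kilobase, Notch2 ranked 2 of the 10 genes by median in controls and 5 with PFNA, and was above Heyl in 10 of 12 controls and 1 of 11 PFNA libraries.

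The ligands moved in opposite directions. Jag1, the leading ligand in these follicles, ranged from 646 to 1346 CPM in controls (median 1001) and from 120 to 928 CPM with PFNA (median 608), and 6 of 11 PFNA libraries lay below every control. PFNA replicates 2 and 10, at 166 and 120 CPM, were far below the next lowest library at 424 CPM. The log2 fold change was -0.84 (SE 0.24, edgeR adjusted p = 0.0033). Without both of those libraries, which were picked because they were lowest in Jag1, it was -0.62 (SE 0.14, adjusted p = 0.00036). Jag2, the second Jagged ligand, ranged from 6.23 to 16.4 CPM (median 8.55) and from 10.2 to 39.4 CPM (median 23.8), with 8 of 11 PFNA libraries above every control, a change of 1.47 on the log2 scale (SE 0.21, edgeR adjusted p = 1.1e-06). Jag1 stayed the first of the 10 genes per kilobase in both groups.

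The targets did not move as one. Hes1 varied little in controls, from 43.0 to 52.7 CPM (median 49.6), and ranged from 23.6 to 51.9 CPM with PFNA (median 45.5), a change of -0.13 on the log2 scale (SE 0.091, edgeR adjusted p = 0.20). Hey1 ranged from 6.73 to 15.4 CPM (median 11.4) and from 2.02 to 10.7 CPM (median 5.72), and 7 of 11 PFNA libraries lay below every control. Its log2 fold change was -0.93 (SE 0.21, edgeR adjusted p = 0.0003). Hey2 went the other way, from 24.5 to 30.8 CPM in controls (median 28.0) to 17.1 to 48.4 CPM with PFNA (median 34.6). With 7 of 11 PFNA libraries above every control and 1 below, its log2 fold change was 0.38 (SE 0.12, edgeR adjusted p = 0.0082). Heyl ranged from 107 to 371 CPM (median 210) and from 47.9 to 332 CPM (median 167), a change of -0.23 on the log2 scale (SE 0.25, edgeR adjusted p = 0.42). Lfng was near the limit of detection, with 0 to 12 counts per control library (median 2) and 0 to 17 with PFNA (median 6), and was not tested.

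**Figure D2:**
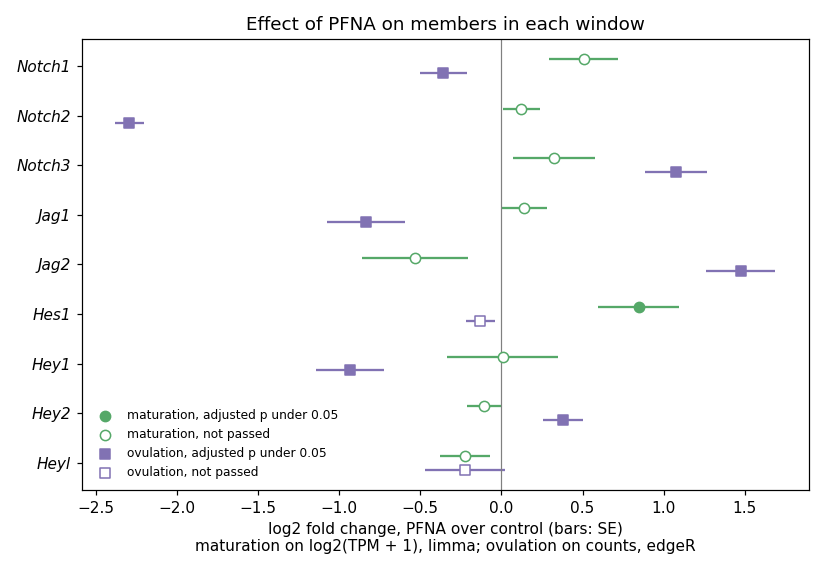
Log2 fold change of PFNA over control for the 9 genes tested, with bars of 1 SE, from limma on log2(TPM + 1) in the maturation window (green circles) and from edgeR on counts in the ovulation window (purple squares); filled symbols passed an adjusted p of 0.05. Hes1 alone is filled in the maturation window, at 0.85, and 7 genes are filled in the ovulation window, from -2.29 for Notch2 to 1.47 for Jag2.

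The third comparison asked whether the effect of PFNA differed between the windows, as its effect in the ovulation window minus that in the maturation window, each from limma within its own table. The difference passed for 8 of 9 genes, 3 higher and 5 lower, beside 67.7% of 11212 genes tested in both windows, 32% higher and 35.6% lower. It was largest for Notch2, at -2.41 (SE 0.14, limma adjusted p = 7.8e-18). Jag2 differed by 1.84 (SE 0.38, limma adjusted p = 7.7e-05), Jag1 by -1.14 (SE 0.30, limma adjusted p = 0.0013) and Hes1 by -1.0 (SE 0.27, limma adjusted p = 0.0017). Notch1 differed by -0.91, Hey1 by -0.92, Hey2 by 0.42 and Notch3 by 0.70 (limma adjusted p = 0.0019, 0.037, 0.020 and 0.042). Heyl did not pass, at -0.09 (SE 0.30, limma adjusted p = 0.80). The Notch3 call was lost without maturation PFNA replicates 1 and 2 (0.59, adjusted p = 0.10). The windows differ in agent, unit and gene models as well as in stage, and these cannot be told apart here.

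Shares within the family do not depend on how a library was scaled, and were compared with two-sided permutation tests adjusted over 6 tests. In the maturation window Hes1 made up 8.47% to 22.0% of the summed Hes1, Hey1, Hey2 and Heyl in controls and 15.5% to 40.8% with PFNA, with 9 of 10 PFNA libraries above every control. The mean went from 15.7% ± 5.13 (SD, n = 11) to 26.4% ± 6.37 (SD, n = 10), permutation p = 0.00036, adjusted p = 0.00072. In the ovulation window the share of Hes1 in summed CPM, not divided by length, was 16.9% ± 4.76 (SD, n = 12) in controls. With PFNA it was 17.5% ± 4.90 (SD, n = 11), permutation p = 0.77. Because TPM are divided by length and CPM are not, shares were not compared between the windows.

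The receptor mix changed in the ovulation window. Notch2 made up 85.0% to 92.3% of summed Notch1, Notch2 and Notch3 CPM in controls and 48.3% to 72.5% with PFNA, with 11 of 11 PFNA libraries below every control. The mean went from 89.1% ± 2.49 (SD, n = 12) to 62.5% ± 8.46 (SD, n = 11), permutation p = 2e-05, adjusted p = 6e-05. Jag1 made up 99.0% ± 0.384 (SD, n = 12) of the Jag1 and Jag2 sum in controls and 94.2% ± 5.61 (SD, n = 11) with PFNA, again with 11 of 11 below every control (permutation p = 1e-05, the smallest these permutations can give, adjusted p = 6e-05). In the maturation window, in TPM, the Notch2 share was 45.5% ± 8.87 (SD, n = 11) and 40.0% ± 7.90 (SD, n = 10), and the Jag1 share 35.2% ± 16.9 and 45.9% ± 12.8, with permutation p of 0.15 and 0.12. Leaving out control replicate 3 brought that Jag1 difference past the threshold (adjusted p = 0.048).

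**Figure D3:**
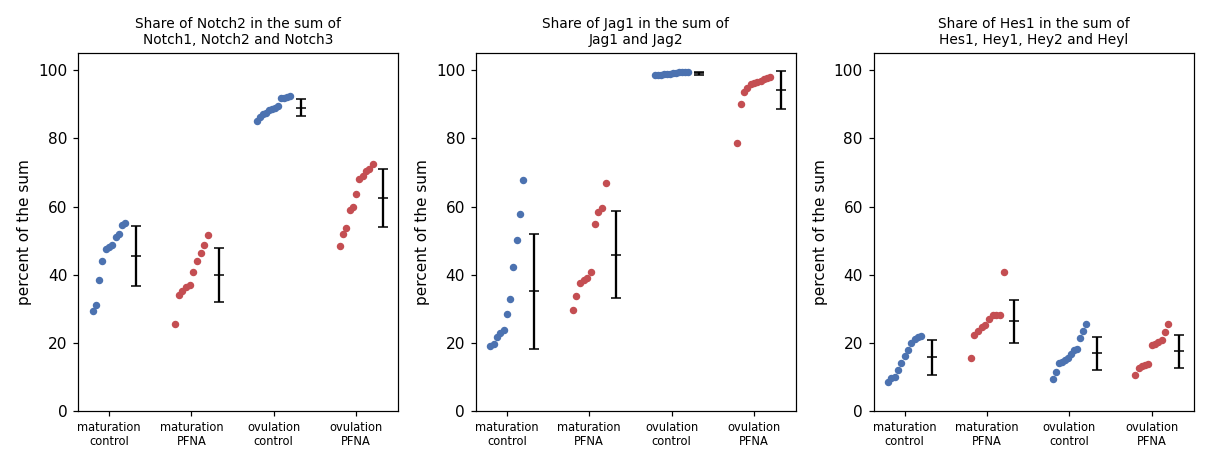
Share of Notch2 among the 3 receptors, of Jag1 among both Jagged ligands and of Hes1 among the 4 targets, as a percent of the summed level in each library, with the mean and SD beside each group. Levels are TPM in the maturation window and CPM, not divided by length, in the ovulation window, so shares cannot be compared between windows. The Notch2 share falls from 85.0% or more in every ovulation control to 72.5% or less with PFNA, and 9 of 10 maturation PFNA libraries exceed every control in the Hes1 share.

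Vessel markers moved beside several of these genes. In maturation libraries the endothelial list held 9 genes, of which 7 were tested by limma and 0 passed, and its summed level was 12.7 to 253 TPM in controls and 34.6 to 251 TPM with PFNA. Across the 11 maturation controls Hes1 followed that sum with r = 0.92 and rho = 0.91 (permutation p = 0.00017 and 0.00042, adjusted p = 0.0029 and 0.0076), and r = 0.86 without the 2 libraries farthest from the median. Hey1 did so with r = 0.93 and rho = 0.93 (permutation p = 9e-05 and 0.00011, adjusted p = 0.0029 and 0.004), and r = 0.88 without those 2. In the 10 maturation PFNA libraries Hes1 had r = 0.83 and rho = 0.65 (permutation p = 0.0026 and 0.05, adjusted p = 0.019 and 0.11), and r = 0.55 without the 2 farthest, and Hey1 had r = 0.74 and rho = 0.68 (permutation p = 0.012 and 0.035, adjusted p = 0.049 and 0.11), and r = 0.21 without them, so that relation rests on those libraries. Over the 36 relations of the 9 genes in 4 groups, 10 passed by r and 4 by rho, 8 of the 10 in the maturation window. With the endothelial sum as a covariate the maturation Hes1 effect was 0.65 (limma adjusted p = 0.00064). With the mural sum instead, which was 21.8 to 258 TPM in controls and 70.4 to 350 TPM with PFNA and of whose 6 tested genes 1 was higher, it was 0.37 (limma adjusted p = 0.083).

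In the ovulation window, where 37.9% of all genes were higher, 7 of 9 endothelial genes were higher by edgeR and Vwf and Cldn5 did not pass, with summed levels of 40.4 to 166 CPM in controls and 43.0 to 479 CPM with PFNA, and 5 of 8 mural genes were higher while Rgs5, Pdgfrb and Mcam did not pass, with sums of 54.9 to 278 and 212 to 1134 CPM. Oocyte markers were higher for 6 of 9 genes tested, with sums of 69.0 to 288 and 20.6 to 448 CPM. The mural sums of the groups overlapped little, so fits with that covariate cannot cleanly separate it from PFNA. With the mural sum as a covariate Notch2 was lower by much the same amount, -2.09 (edgeR adjusted p = 2.2e-12), and Jag2 was 1.19 (adjusted p = 0.0045), whereas Notch3 was 0.28 (adjusted p = 0.27) and Jag1 -0.87 (adjusted p = 0.066). With the endothelial sum Notch2 was -2.20 and Notch3 0.76 (edgeR adjusted p = 7.2e-16 and 0.00019). With the share of oocyte transcripts Notch2 was -2.18 (edgeR adjusted p = 2.4e-15), and the calls of Notch1, Jag1 and Hey2 were lost (adjusted p = 0.13, 0.11 and 0.47).

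**Figure D4:**
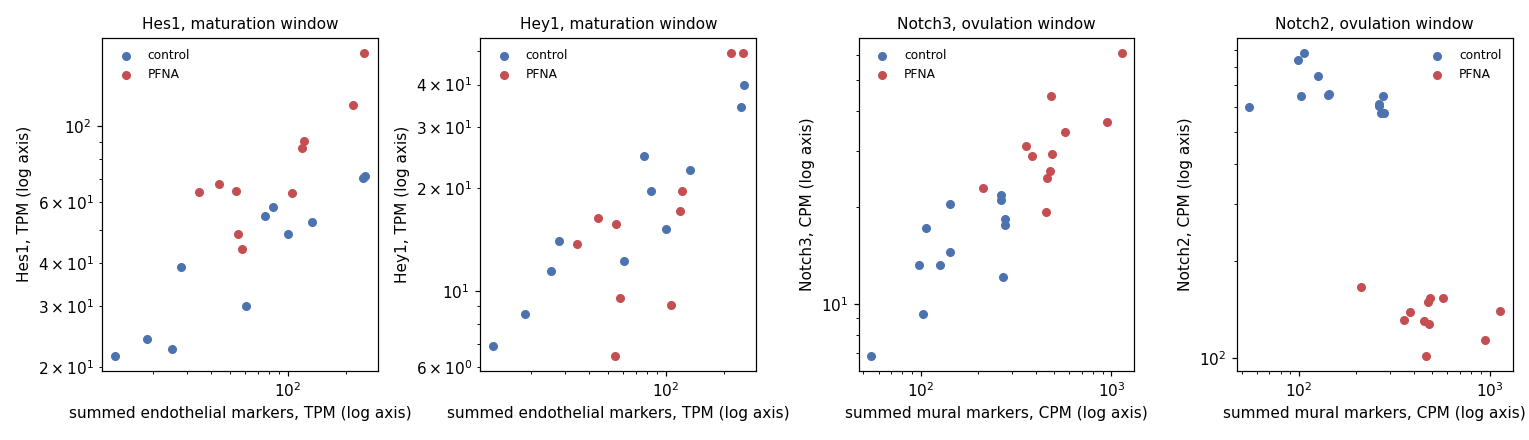
Hes1 and Hey1 against the summed endothelial markers in maturation libraries (TPM), and Notch3 and Notch2 against the summed mural markers in ovulation libraries (CPM), on log axes, with 1 point per library. Hes1 and Hey1 climb with the endothelial sum in controls (r = 0.92 and 0.93). The Notch2 levels of the PFNA libraries stay at or under 166 CPM, at mural sums of 212 to 1134 CPM. Those sums overlap little with the 54.9 to 278 CPM of controls.

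Pairs of a receptor or ligand with a partner or target were compared across libraries within each group, 6 pairs and 24 relations in all. Of these 2 passed by r, both in maturation controls. Notch3 and Heyl, a receptor and a target known from mural cells, had r = 0.88 and rho = 0.90 (permutation p = 0.00031 and 0.00036, adjusted p = 0.0074 and 0.0086), and r = 0.76 without the 2 libraries farthest from the median. In the same controls Notch3 and Heyl also followed the endothelial sum, with r = 0.74 and 0.77 (permutation adjusted p = 0.049 and 0.027). By rho Heyl passed and Notch3 did not (permutation adjusted p = 0.024 and 0.067). The cell type behind the relation of Notch3 and Heyl was not tested. Notch2 and Jag1 had r = 0.82 and rho = 0.67 (permutation p = 0.0039 and 0.028, adjusted p = 0.047 and 0.17), and r = 0.66 without those 2.

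The rest of the pathway was read from a list of 72 genes, of which 70 were in each table. Among the receptors and ligands outside the family, none passed in the maturation window with all libraries and no covariate, where the log2 fold changes of Notch4, Dll1 and Dll4 were 0.52, 0.45 and 0.56 (limma adjusted p = 0.34, 0.11 and 0.36). Dll1 passed there with the oocyte share as a covariate (0.70, adjusted p = 0.039), without PFNA replicates 1 and 2 (0.61, adjusted p = 0.012) and without replicate 1 alone (0.59, adjusted p = 0.012). In the ovulation window Notch4, an endothelial receptor, ranged from 0.523 to 16.5 CPM in controls (median 7.67) and from 3.37 to 44.4 CPM with PFNA (median 22.8), a change of 1.57 on the log2 scale (SE 0.44, edgeR adjusted p = 0.0026). Dll4, the endothelial Delta ligand, ranged from 0.224 to 10.8 CPM (median 5.48) and from 0.878 to 38.3 CPM (median 14.6), a change of 1.82 on the log2 scale (SE 0.50, edgeR adjusted p = 0.0025). Each had 8 of 11 PFNA libraries above every control, and each turned negative with the mural sum as a covariate, at -0.51 and -0.22 (edgeR adjusted p = 0.34 and 0.79). With the endothelial sum they were 0.50 and 0.47 (edgeR adjusted p = 0.038 and 0.090). Dll3 was lower, with a log2 fold change of -2.36, and Dll1 was 0.22 (edgeR adjusted p = 0.00039 and 0.56). Levels of Dll3 were low, at 0.0807 to 6.05 CPM in controls (median 2.34) and 0 to 1.36 CPM with PFNA (median 0.449). Only 1 of 11 PFNA libraries lay below every control for Dll3. The calls of Dll3 and Rbpj were lost with the mural sum (-1.78 and 0.47, edgeR adjusted p = 0.076 and 0.10). Rbpj, the DNA-binding partner of all Notch receptors, ranged from 37.3 to 68.7 CPM (median 44.0) and from 39.5 to 123 CPM (median 63.5), a change of 0.50 on the log2 scale (SE 0.16, edgeR adjusted p = 0.0081). In the maturation window Rbpj was 0.02 (limma adjusted p = 0.94).

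Over the whole list 13 genes were higher and 6 lower of 61 tested in the maturation window, with a median log2 fold change of 0.15, and 20 were higher and 30 lower of 67 tested in the ovulation window, with a median of -0.23. Over all genes 29.4% and 73.2% were called in those windows, so the list's counts are near the background. Means are given ± SD over the libraries of a group. In the ovulation window, where 37.9% of all genes were higher and 35.3% lower, 3 of 9 genes of the RBPJ complex and its coactivators were higher and 6 lower. The higher ones were Rbpj, Maml3 at 0.60 and Kat2b at 0.35 (edgeR adjusted p = 0.0046 and 0.00094 for the latter pair). The lower ones were Maml1 at -0.63, Maml2 at -0.76, Snw1 at -0.41 and the acetyltransferases Kat2a at -0.62, Crebbp at -0.71 and Ep300 at -0.66. Of 12 corepressors 1 was higher and 8 lower. Spen, the corepressor that binds RBPJ, averaged 182 ± 10.5 CPM in the 12 controls and 63.1 ± 9.04 CPM in the 11 PFNA libraries, a log2 change of -1.52 (edgeR adjusted p = 9.2e-16). Tle2, a Groucho-type corepressor, was the 1 that rose, from 3.99 ± 0.907 to 37.2 ± 8.37 CPM, a log2 change of 3.22 (edgeR adjusted p = 3.8e-16). In the maturation window 3 of 7 coactivators tested were higher and 0 lower, and 2 of 12 corepressors were higher and 1 lower. Among all genes 13.3% were higher and 16.1% lower in that window. Spen was 0.35 in maturation (limma adjusted p = 0.075). Spen passed there without PFNA replicates 1 and 2 (0.48, adjusted p = 0.007), without replicate 2 alone (0.44, adjusted p = 0.012) and with median-ratio size factors (0.33, adjusted p = 0.047).

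Furin, the convertase that makes the first cut in Notch, averaged 362 ± 54.7 CPM in controls and 95.7 ± 17.6 CPM with PFNA, a log2 change of -1.92 (edgeR adjusted p = 1.1e-14), and was 0.39 in the maturation window (limma adjusted p = 0.017). That maturation call was lost with the mural sum as a covariate (0.20, adjusted p = 0.15) and with a replicate block (0.32, adjusted p = 0.051). Psen2, a catalytic subunit of gamma-secretase, was higher in both windows, at 0.57 in maturation (limma adjusted p = 9.1e-05) and 1.17 in ovulation (edgeR adjusted p = 1.9e-09). Aph1a, another gamma-secretase subunit, was lower in maturation, at -0.18, and higher in ovulation, at 0.12 (limma adjusted p = 0.0044, edgeR adjusted p = 0.028). The ovulation call was lost with no filter on low counts, with a replicate block and with the mural sum (0.09, 0.11 and 0.16, adjusted p = 0.14, 0.067 and 0.075), and without PFNA replicate 5 or 9 or control replicate 11 (adjusted p up to 0.061). Of 10 protease genes 3 were higher and 2 lower in maturation, and 5 were higher and 2 lower in ovulation, beside 29.4% and 73.2% of all genes called. Mib1, the ubiquitin ligase that lets ligands signal, fell from 279 ± 24.2 to 132 ± 12.5 CPM, a log2 change of -1.08 (edgeR adjusted p = 2.5e-14), whereas Dtx3, of the Deltex family, rose from 27.8 ± 3.73 to 79.0 ± 14.2 CPM, 1.51 (edgeR adjusted p = 4.2e-13). Neurl1b, a Neuralized-type ubiquitin ligase, was -0.58 in maturation and 1.27 in ovulation (limma adjusted p = 0.0046, edgeR adjusted p = 0.001). The maturation call was lost with the oocyte share as a covariate (-0.30, adjusted p = 0.14) and the ovulation call with the mural sum (0.40, adjusted p = 0.39). Dvl2, a Dishevelled adaptor of Wnt signalling, was the 1 named gene whose maturation groups did not overlap, at 63.9 to 70.0 TPM in controls and 49.4 to 62.5 TPM with PFNA (-0.20, limma adjusted p = 0.00064).

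Id2 and Bhlhe40, named for their small p, had opposite signs in the windows. Id2, an inhibitor of bHLH factors, rose in maturation from 145 ± 35.5 to 269 ± 61.6 TPM, by 0.89 on the log2 scale (limma adjusted p = 7.5e-05), and fell in ovulation from 231 ± 50.8 to 21.4 ± 8.92 CPM, -3.43 (edgeR adjusted p = 5.3e-13). Bhlhe40, a bHLH repressor, was 0.55 in maturation and -1.32 in ovulation (limma adjusted p = 0.00016, edgeR adjusted p = 1.7e-07). Of the list's 11 HES, ID and other target genes, 3 of 8 tested were higher and 0 lower in maturation, where 13.3% of all genes were higher and 16.1% lower. In ovulation 1 of 7 was higher and 5 lower, where 37.9% of all genes were higher and 35.3% lower. In both windows together 4 genes of the list were higher in each, 3 lower in each, 7 higher in maturation and lower in ovulation, and 2 the reverse. The shares of all genes with these combinations were not computed, so the counts cannot be read as a trait of the list.

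**Figure D5:**
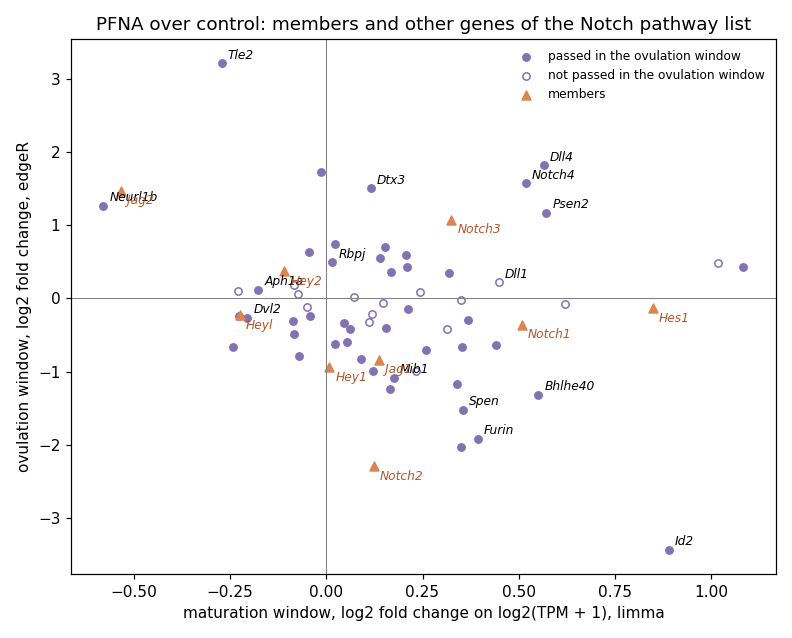
Log2 fold change in the ovulation window (edgeR) against that in the maturation window (limma on log2(TPM + 1)) for the genes of the pathway list tested in both (circles, filled where the ovulation test passed) and the 9 family genes tested (triangles). Id2 lies farthest to the lower right, at 0.89 and -3.43, Tle2 is highest, at 3.22, and Notch2 is the lowest triangle, at 0.12 and -2.29.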

How the data were processed

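Each window has its own deposited table. By its values the maturation table, although named as raw counts, holds TPM: its libraries sum to 999984 to 999992, and 82.6% of the deposited values are not whole (tolerance 1e-06). The ovulation table holds estimated counts deposited by the authors, 18.3% of them not whole, which were rounded. The submitters' processing notes name Partek, Bowtie2 and HISAT2; their roles, versions and the genome build are not given in the sources used here. Starts in the maturation table matched GENCODE M21 (GRCm38) for 99.4% of symbols, and those of the ovulation table for 37.2%. Coordinates are from the maturation table.

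Maturation libraries were tested with limma 3.58.1 (R 4.3.3, trend, robust) on log2(TPM + 1), which understates the change of low genes, for genes averaging 1 TPM or more. Ovulation libraries were tested with edgeR 4.0.16 (quasi-likelihood, filterByExpr, TMM, robust), with the SE taken from the log2 fold change and its F statistic. Both methods were tested on simulated data with few changed genes, balanced between higher and lower. That does not show how they do in the ovulation window, where 73.2% of genes passed. P-values were adjusted by Benjamini-Hochberg over all genes tested, and an adjusted p under 0.05 was called. Shares and relations used 100000 permutations, two-sided. A repeated symbol was dropped from the maturation table and 2 from the ovulation table. The alternatives comprised 20 fixed at the outset and 5 added after seeing the data: endothelial or mural marker sums as covariates in each window, and leaving out ovulation PFNA replicates 2 and 10. The relations with the endothelial sum were also added after seeing the data. The genes named are the 10 family members, Notch4, Dll1, Dll3, Dll4, Rbpj and, per window, the 3 higher and 3 lower pathway genes with the smallest p; the other coactivators were added after their values were seen. The members and lists were chosen with earlier results of these data known.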

Additional observations from a re-analysis of the deposited data

Results flagged for a closer look

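For independent and normally distributed values, about 1.45 of 29 would have a library far from the others. The values searched come from the same 10 maturation PFNA libraries, so that number is only a rough guide. Of these 29 gene levels and shares, 6 had such a library. Replicate 10 was the high library in 5 of the 6: Notch3 at 26.3 TPM (next highest 12.03), Jag1 at 15.95 TPM (next 9.06), Lfng at 2.47 TPM (next 1.18), Dll4 at 30.1 TPM (next 15.6) and the Hes1 share of the 4 targets at 40.8% (next 28.2%). That library also had the highest summed oocyte markers of its group, 292 TPM, and its part in these values was not tested. Replicate 7 was the low library for Tle2, at 12.2 TPM (next lowest 25.9).

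The effect of PFNA differed between the windows, by limma on the difference itself, for 18 of the 24 genes named that were tested in both windows, beside 67.7% of all genes; pathway genes had been picked by their p within a window. Values are the log2 effect in the ovulation window minus that in the maturation window. In the family they were -0.91 for Notch1, -2.41 for Notch2, 0.70 for Notch3, -1.14 for Jag1, 1.84 for Jag2, -1.0 for Hes1, -0.92 for Hey1 and 0.42 for Hey2. That of Notch3 did not pass with a pseudocount of 0.1 or without maturation PFNA replicates 1 and 2 (adjusted p = 0.059 and 0.10). In the pathway list they were -4.34 for Id2, 0.55 for Psen2, -1.90 for Bhlhe40, 0.29 for Aph1a, 1.59 for Neurl1b, 3.20 for Tle2, 1.35 for Dtx3, -1.87 for Spen, -2.31 for Furin and -1.25 for Mib1.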

How the results depend on the processing

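Most results kept their side of the threshold: 252 of the values of family genes in the maturation window did so under the alternatives run, with 8 moving past the threshold and 1 losing it, and 263 did so in the ovulation window, with 2 gained and 14 lost. A gene not called was counted as kept even where its sign changed. Maturation Hey1, for example, ran from -0.16 to 0.15 when each library was left out. The number of family genes called in the maturation window, 1, was 4 with the oocyte share as a covariate, 2 without PFNA replicates 1 and 2 together, and 1 to 2 when each library was left out. The 7 called in the ovulation window were 4 with the oocyte share and 6 without PFNA replicates 2 and 10, which lost Notch1. The 3 gained with the oocyte share were Notch1, Notch3 and Jag1. Outside maturation PFNA replicates 1, 2 and 10, oocyte sums with PFNA were far below every control. Those fits therefore cannot cleanly separate the oocyte share from PFNA. With the mural covariate the maturation Hes1 call was lost (0.37), and Notch4 and Dll4 reversed in the ovulation window, to -0.51 and -0.22. The maturation difference in the Jag1 share was 8.38 to 13.97 percentage points when each library was left out. With a pseudocount of 0.1 the difference between windows for Notch3 was 0.71 (limma adjusted p = 0.059). The cause of these changes was not tested. Of the genes called in the maturation window 45.2% were higher, and 57.7% with the oocyte share, 33.1% with the mural sum and 50% without PFNA replicates 1 and 2. The median of all genes in the ovulation window, 0.04, was 0.31 by DESeq2 and 0.26 with no filter on low counts, both over more genes, and the family's calls did not change. Same-numbered libraries deviated together little (correlations of -0.138 to 0.168 over 9 maturation pairs, -0.194 to 0.0732 over 11 ovulation pairs), with 1 maturation pair over 0.1. Pairing by the labels' numbers was thus not seen, but such correlations cannot exclude a shared origin. With the replicate block 2893 genes in place of 4029 were called in the maturation window, maturation Hes1 was 0.95 (limma adjusted p = 0.017), and ovulation Notch1 was -0.41 (edgeR adjusted p = 0.063). Depth limits Lfng, and is unknown in the maturation window.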
